A study of Arabidopsis thaliana with 15 samples.

Results

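The GLDT::NAC052 line of Arabidopsis thaliana (ecotype Col-0) expresses the whole reading frame of the transcription factor NAC052 from the GLDT promoter of the C4 species Flaveria trinervia. Its 3 libraries were compared with the 3 libraries of the reference line, 6 of the 15 libraries in the series, and were chosen by their labels alone. Both lines carry the same reporter, a plastid-targeted GFP driven by the GLDPA promoter of F. trinervia, and the GLDT::NAC052 construct was added to that reference line. The other lines of the series were the GLDT::5'truncatedNAC052 line, which expresses a shortened reading frame from the same promoter, the CRISPR/Cas line with a mutated NAC052 gene, and the activation-tagged line with the GLDT promoter inserted in NAC052. Each line had 3 biological replicates of complete rosettes harvested at day 28. The comparison asks which genes and functions change when whole NAC052 is placed under a promoter that is active in the leaf bundle.

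NAC052 belongs to the NAC family of plant transcription factors. Together with its close relative NAC050 it recruits JMJ14, an enzyme that removes methyl groups from lysine 4 of histone H3, and the complex is known as a repressor of transcription that also bears on gene silencing and flowering. GLDT encodes the T-protein of glycine decarboxylase, a photorespiratory enzyme that in C4 leaves is confined to the bundle sheath, and the F. trinervia promoter keeps activity in the leaf bundle when it is moved into Arabidopsis. Whole rosettes mix the bundle with a large excess of mesophyll and other cells, so that a change in RNA per cell and a change in the number of cells of a type cannot be told apart. The leaf phenotype of such transformants was described as absent from their progeny, the construct inserts at a random place, and 1 line stands for it here, all of which limit the line as a model.

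Library totals ran between 36543399 and 38579309 deposited counts in the GLDT::NAC052 line and between 32064138 and 36691617 in the reference line. The GLDT::NAC052 libraries were sequenced on lane 8 and the reference libraries on lane 1, so that line and lane cannot be told apart in this comparison. The GLDT::5'truncatedNAC052 and CRISPR/Cas libraries shared lane 8, and their values are given beside the main ones as a comparison within the lane. Leaf markers were high in all 6 libraries, with a summed level of 7 mesophyll markers between 29510 and 40920 CPM (counts relative to the scaled library total) in the GLDT::NAC052 line and between 50210 and 55020 CPM in the reference line. None of the 7 mesophyll markers was differential. Flower and root markers stayed at or under 4.41 CPM in sum, and AP1, LFY and EXPA7 had no count in any of the 6 libraries. The summed bundle sheath markers had a median of 133 CPM in the GLDT::NAC052 line and 205 CPM in the reference line, and 1 of 5 was differential, the sulfate transporter gene SULTR2;2. Their median was 139 CPM in the CRISPR/Cas line and 180 CPM in the GLDT::5'truncatedNAC052 line. The mesophyll sums had medians of 39540 and 46330 CPM in these 2 lines, 37250 CPM in the GLDT::NAC052 line and 53300 CPM in the reference line.

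The transgene was examined first. NAC052 (AT3G10490, chromosome 3, positions 3267825 to 3271202 of TAIR10.1, plus strand) had 11127, 1057 and 6504 counts in replicates 1, 2 and 3 of the GLDT::NAC052 line, against 710, 661 and 600 in the reference line. The 3 GLDT::NAC052 libraries all lay above the reference libraries, but replicate 2 lay close to them while replicates 1 and 3 stood far above. Scaled to CPM, the level was 157 ± 127 in the GLDT::NAC052 line and 19.9 ± 0.59 in the reference line (SD, n = 3 each). The log2 fold change was 2.98 ± 0.57 (SE, adjusted p = 0.0016, edgeR quasi-likelihood test, Benjamini-Hochberg). A two-sided exact permutation test on the scaled counts gave p = 0.1, below which 3 against 3 cannot go. NAC052 had 931, 2366 and 1932 counts in the GLDT::5'truncatedNAC052 line and 791, 856 and 899 in the CRISPR/Cas line, both on lane 8.

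NAC050 (AT3G10480), the neighbouring paralog, had 437, 992 and 621 counts in the GLDT::NAC052 line, against 785, 747 and 687 in the reference line. Within the GLDT::NAC052 line its order was the reverse of that of NAC052, with the lowest NAC050 count in replicate 1 and the highest in replicate 2. The log2 fold change of NAC050 was -0.37 ± 0.21 (SE, adjusted p = 0.21, edgeR, Benjamini-Hochberg), and reads of the 2 paralogs could have been exchanged in the counting. JMJ14 (AT4G20400) had 1476, 1401 and 1370 counts in the GLDT::NAC052 line, against 1409, 1315 and 1200 in the reference line. Its log2 fold change was -0.14 ± 0.07 (SE, adjusted p = 0.11, edgeR, Benjamini-Hochberg). Of the 9 tested genes for NAC052, its partner NAC050 and H3K4 demethylases, only NAC052 passed the test.

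**Figure D1:**
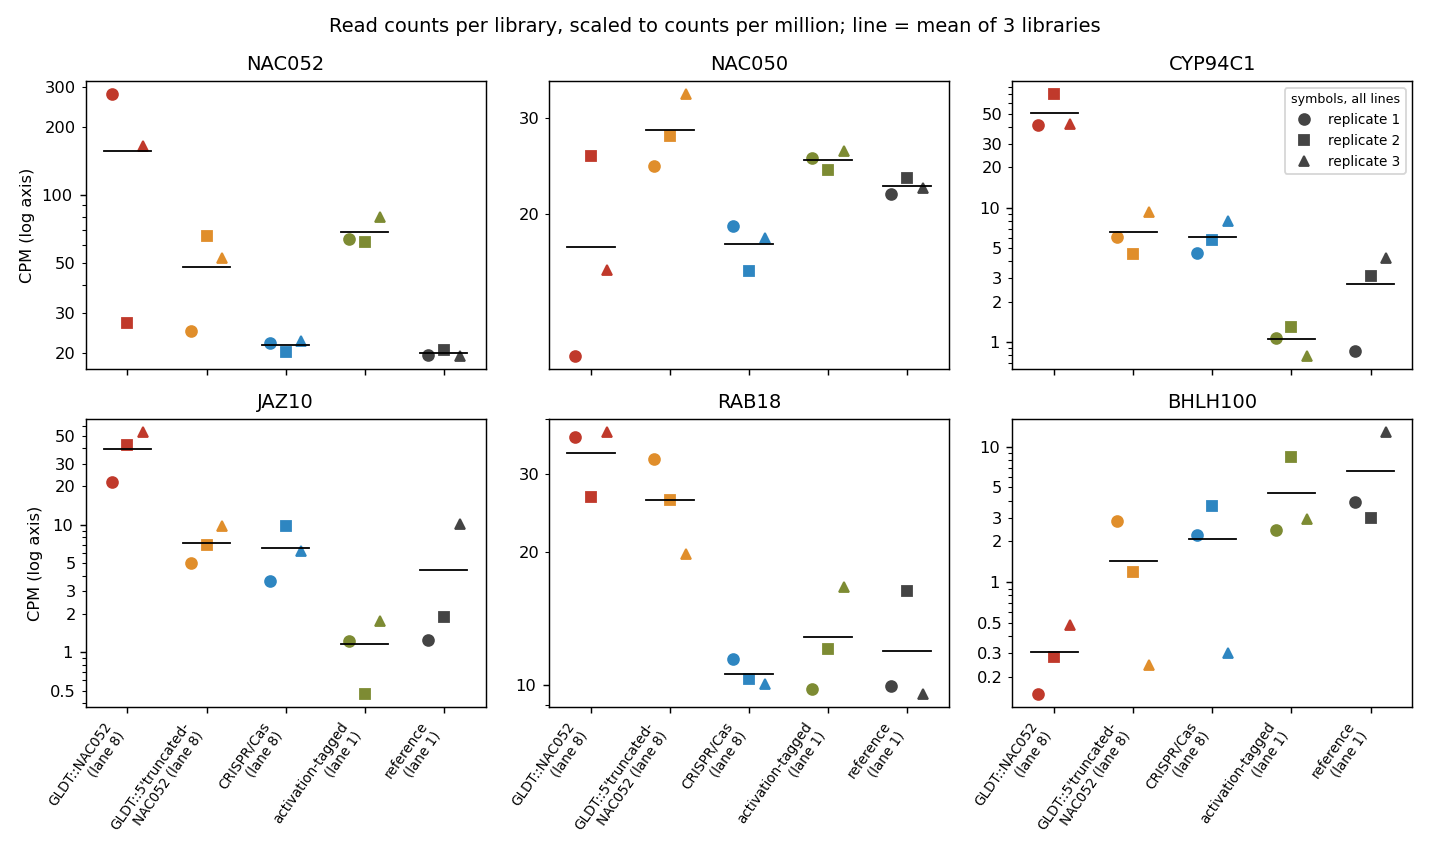
Scaled read counts (CPM, log axis) of NAC052, its paralog NAC050, the jasmonate genes CYP94C1 and JAZ10, the abscisic acid-responsive gene RAB18 and the iron-deficiency gene BHLH100 in the 15 libraries. Symbols mark replicates and horizontal lines the mean of 3 libraries. NAC052 was far above the reference in replicates 1 and 3 only, whereas CYP94C1, JAZ10 and RAB18 were above all 3 reference libraries in each of the 3 GLDT::NAC052 libraries.

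Across the transcriptome, genes were called differential where the adjusted p in edgeR (Benjamini-Hochberg) was under 0.05 and the fold change lay beyond 2 in either direction. Of 19663 genes tested, 1614 were differential (8.21%), of which 1053 were higher in the GLDT::NAC052 line (5.36% of all genes tested) and 561 were lower (2.85%). With scaling by library totals alone, which moved the median of all genes by 0.11 on the log2 scale, the split was 1264 higher and 356 lower. The rises were larger than the falls, with 375 of the higher genes and 51 of the lower genes beyond a 4-fold change. The 6 libraries did not overlap between the lines for 1551 of the 1614 differential genes, against 9239 of all genes tested (47.0%, with 23.0% higher and 24.0% lower).

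The 15 largest rises included several transcription factor genes. AT2G22880, which encodes a VQ motif protein, had 204, 467 and 711 counts in the GLDT::NAC052 line and none in the reference line, which makes it at least 128-fold higher when each reference library is set at a floor of 3 counts. ABR1, an ERF transcription factor linked to abscisic acid and wounding, had 2049, 2846 and 4019 counts in the GLDT::NAC052 line, against 22, 120 and 166 in the reference line. Its log2 fold change was 4.56 ± 0.63 (SE, adjusted p = 0.000201, edgeR). ERF109, a factor induced early by wounding and redox stress, had 161, 281 and 466 counts in the GLDT::NAC052 line, against 3, 2 and 25 in the reference line. In each of these 3 genes the GLDT::NAC052 libraries were far above the reference, and replicate 1 was the lowest of the 3.

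DAD1, whose lipase releases the fatty acid from which jasmonate is made, had 109, 220 and 436 counts in the GLDT::NAC052 line, against 2, 14 and 16 in the reference line. The heat shock gene HSP70 (AT3G12580) had 1991, 709 and 5354 counts in the GLDT::NAC052 line, against 127, 97 and 119 in the reference line. The ERF gene ERF019 had 70, 107 and 199 counts in the GLDT::NAC052 line and 2, 1 and 0 in the reference line, a ratio of 105 with a 95% counting interval between 35.7 and 512. The other large rises were AT5G56985, AT3G12030, DIP2, AT2G30830, the glycosyltransferase gene UGT76B1, the DREB gene DDF1, the kinase-like gene AT3G46280 and the jasmonate genes AOC3 and CYP94C1, with log2 fold changes between 4.24 and 5.43. The call of UGT76B1 was lost without replicate 3 of the GLDT::NAC052 line (adjusted p = 0.0668) or without reference replicate 2 (0.0555) or 3 (0.0555), and that of AT3G12030 without reference replicate 1 (0.0605) or 2 (0.0628, all edgeR). Replicate 3 was the highest of the 3 GLDT::NAC052 libraries in 13 of these 15 genes.

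The 10 largest falls included 4 members of the list of leaf iron genes. BHLH38, BHLH39, BHLH100 and BHLH101, which encode the group of bHLH factors that drive iron uptake, had log2 fold changes between -5.44 and -3.37. AT1G19960, annotated as a transcription factor, had 237, 193 and 374 counts in the GLDT::NAC052 line, against 1679, 1300 and 1382 in the reference line. Its log2 fold change of -2.69 ± 0.23 (SE, adjusted p = 1.6e-05, edgeR) was the most precisely measured of the 10 largest falls. The cell wall gene XTH31 had 26, 51 and 10 counts in the GLDT::NAC052 line, against 85, 409 and 106 in the reference line. The genes AT2G14247, AT5G05250 and AT2G30766, which are on none of the gene lists, and the lipid-transfer gene AT1G48750 made up the rest, with log2 fold changes between -4.44 and -2.68.

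**Figure D2:**
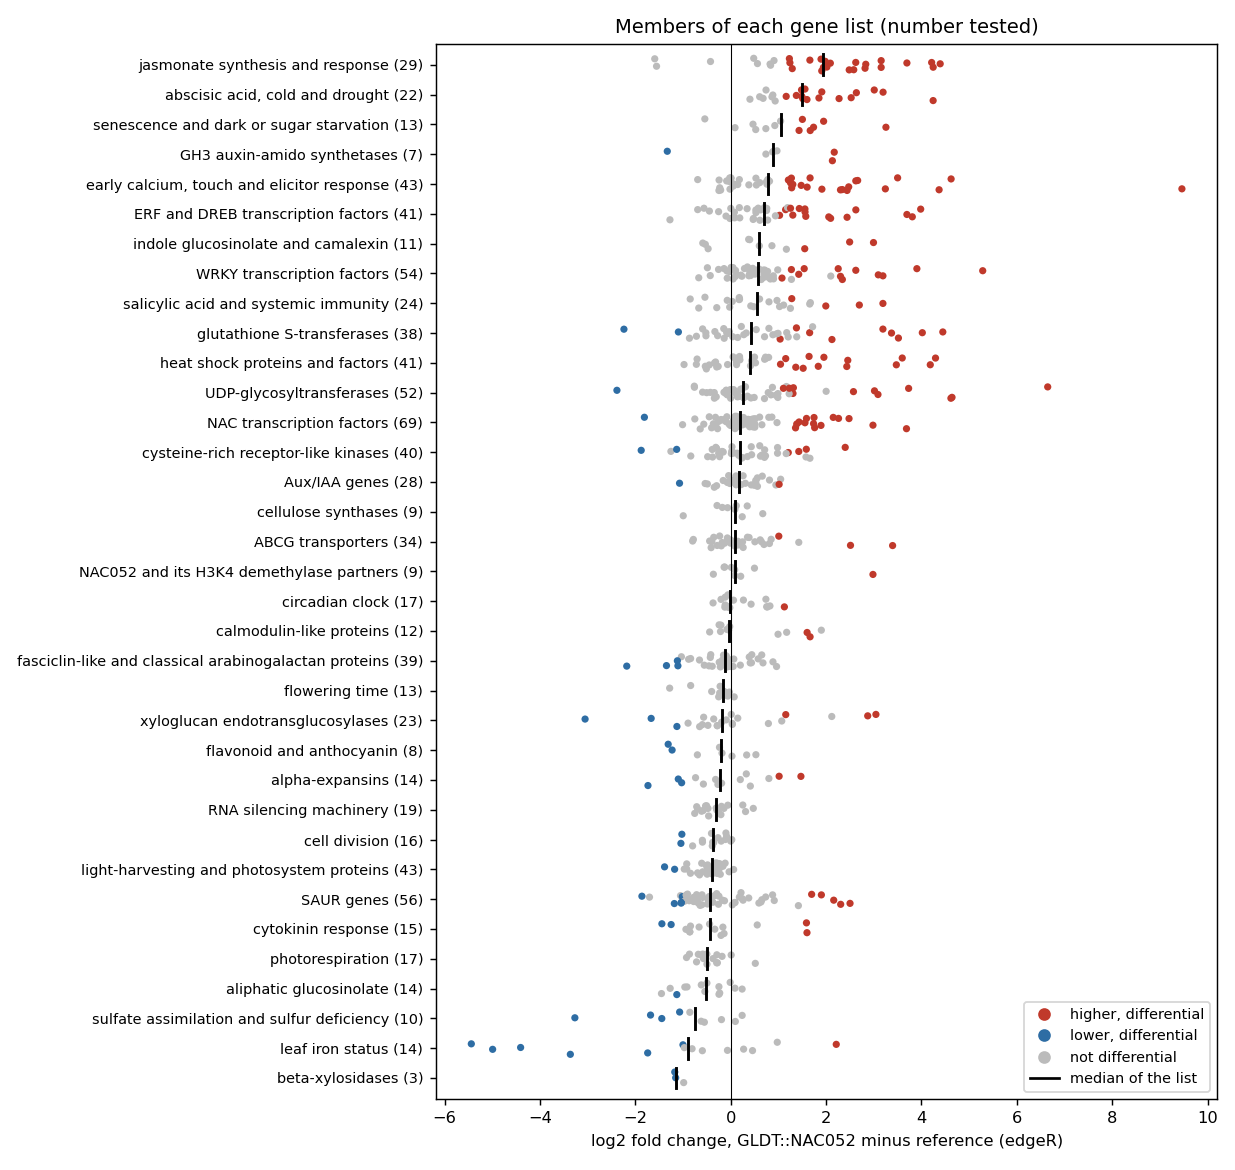
Log2 fold change of every tested member of the gene lists in the GLDT::NAC052 line minus the reference line (edgeR). Red points are differential and higher, blue points differential and lower, grey points not differential, and black bars the list medians. Jasmonate and abscisic acid lists lie at the top with medians of 1.94 and 1.5, and the iron list near the bottom with a median of -0.89. The fitted value of a gene without counts in the reference, such as ATL41 at 9.46, is not a bound.

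Jasmonate is a hormone made from plastid lipids by lipoxygenases (LOX), allene oxide synthase (AOS), allene oxide cyclases (AOC) and the peroxisomal reductase OPR3. JAR1 then joins it to isoleucine, and this conjugate triggers the destruction of JAZ repressors, which frees the transcription factor MYC2. JAZ genes and the CYP94 enzymes that oxidise the hormone are themselves induced, which makes them sensitive reporters of the pathway. In the GLDT::NAC052 line, 21 of 29 tested jasmonate genes were higher and none was lower, with a median log2 fold change of 1.94, whereas the median of all genes tested was close to 0. The list reached from the first synthetic step to hormone breakdown.

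Among the genes of synthesis, LOX2 had 109274, 154431 and 141669 counts in the GLDT::NAC052 line, against 16866, 47744 and 40444 in the reference line. LOX3 had 11006, 21281 and 19716 counts in the GLDT::NAC052 line, against 589, 1144 and 2990 in the reference line, a log2 fold change of 3.15. All 3 GLDT::NAC052 libraries of both genes were above all 3 reference libraries. AOS rose to 39840, 66743 and 60975 counts in the GLDT::NAC052 line, against 6252, 14420 and 14123 in the reference line. AOC3 had 2429, 3111 and 7854 counts in the GLDT::NAC052 line, against 83, 98 and 339 in the reference line, and had the largest change of the list with a log2 fold change of 4.39 ± 0.65 (SE, adjusted p = 0.00031, edgeR). AOC1 and AOC2, which lie beside AOC3 and are close in sequence so that their reads could be split between them, had log2 fold changes of 2.82 and 2.02. AOC4, on another chromosome, was not differential with a log2 fold change of 0.48.

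OPR3 had 12567, 19721 and 21666 counts in the GLDT::NAC052 line, against 1223, 2929 and 7162 in the reference line, a log2 fold change of 1.94. JAR1 had 5844, 10794 and 12445 counts in the GLDT::NAC052 line, against 1607, 1636 and 2425 in the reference line. Neither gene overlapped between the lines, and for both replicate 1 was the lowest GLDT::NAC052 library. OPCL1, a ligase that acts after OPR3, stayed under the fold limit with a log2 fold change of 0.83.

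The JAZ repressor genes moved together. Of 10 tested, JAZ1, JAZ2, JAZ5, JAZ6, JAZ7, JAZ8, JAZ9 and JAZ10 were higher, and JAZ3 and JAZ12 did not pass the fold limit with log2 fold changes of 0.56 and 0.91. JAZ10 showed the largest change of the family, with 867, 1638 and 2105 counts in the GLDT::NAC052 line, against 45, 61 and 313 in the reference line. JAZ1 had 4071, 6333 and 8492 counts in the GLDT::NAC052 line, against 478, 886 and 1153 in the reference line. MYC2 had 6592, 10082 and 9775 counts in the GLDT::NAC052 line, against 190, 2288 and 3234 in the reference line. Reference replicate 1 was far below the other reference libraries for MYC2, and its call (log2 fold change 1.89 ± 0.63, adjusted p = 0.031, edgeR) was lost without replicate 2 (adjusted p = 0.0666) or 3 (0.0656) of the GLDT::NAC052 line and without reference replicate 2 (0.0651).

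Breakdown of the hormone was represented by CYP94B3 and CYP94C1. CYP94B3 had 3438, 6476 and 6735 counts in the GLDT::NAC052 line, against 53, 101 and 569 in the reference line. CYP94C1 had 1635, 2734 and 1670 counts in the GLDT::NAC052 line, against 31, 100 and 130 in the reference line. Their log2 fold changes were 4.21 ± 0.74 and 4.25 ± 0.44 (SE, adjusted p = 0.000875 and 4.02e-05, edgeR).

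Output genes that are usual endpoints of the pathway behaved differently. The vegetative storage protein gene VSP2 had 290, 332 and 537 counts in the GLDT::NAC052 line, against 247, 980 and 1527 in the reference line. VSP1 had 63, 93 and 175 counts in the GLDT::NAC052 line, against 76, 275 and 459 in the reference line. The defensin gene PDF1.2 had 92, 133 and 280 counts in the GLDT::NAC052 line, against 202, 119 and 245 in the reference line. The lines overlapped for all 3 genes and none passed the test (log2 fold changes of -1.56, -1.59 and -0.43, adjusted p = 0.28, 0.30 and 0.67, edgeR). ERF1, a factor on the branch shared by jasmonate and ethylene, was higher with 40, 24 and 79 counts in the GLDT::NAC052 line, against 5, 2 and 2 in the reference line, while ORA59 of the same branch was not differential.

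Jasmonate genes were next compared within lane 8. Against the GLDT::5'truncatedNAC052 line, 19 of the 29 were higher in the GLDT::NAC052 line and none was lower, with a median log2 fold change of 1.42, while 1.49% of all genes tested were higher and 0.27% lower in that comparison. CYP94C1 had 224, 163 and 344 counts in the GLDT::5'truncatedNAC052 line, and CYP94B3 had 407, 684 and 637. Against the CRISPR/Cas line, 21 of 29 were higher and 1 was lower, with a median of 1.72, beside 7.69% higher and 5.21% lower among all genes tested. Leaving out 1 library at a time from the GLDT::NAC052 and reference lines gave between 20 and 24 higher members.

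**Figure D3:**
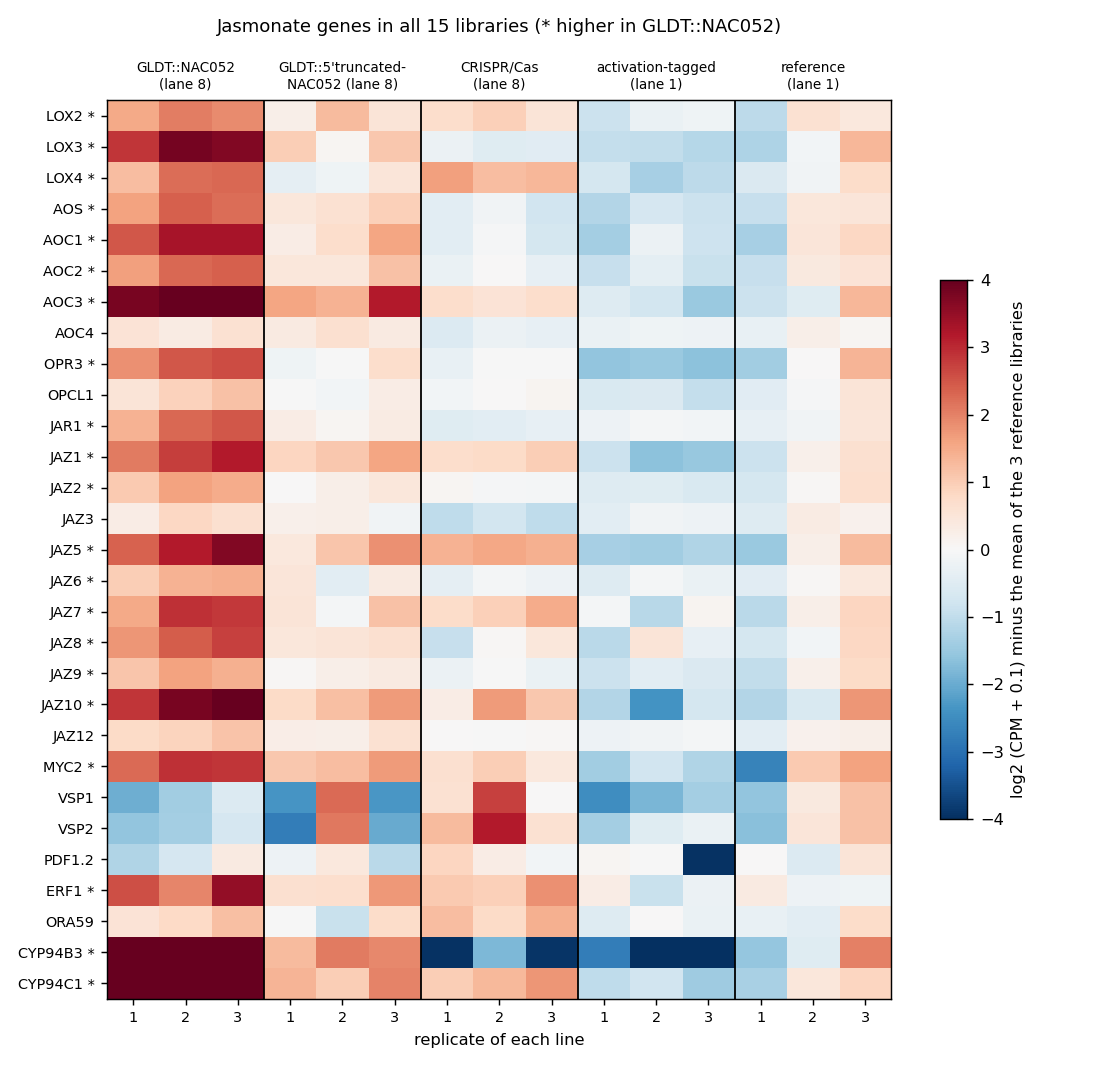
Level of 29 jasmonate genes in the 15 libraries, as log2 (CPM + 0.1) minus the mean of the 3 reference libraries, with red above and blue below the reference. Synthesis genes are at the top, JAZ repressors in the middle and output and breakdown genes at the bottom, and an asterisk marks genes higher in the GLDT::NAC052 line. The 3 GLDT::NAC052 columns are red for 21 genes, with replicate 1 paler than replicates 2 and 3 for most of them, and VSP1 and VSP2 are not raised there.

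Abscisic acid is the hormone of drought and cold, and it induces dehydrins and other protective proteins as well as the phosphatases that damp its own signal. Of 22 tested genes for abscisic acid, cold and drought, 15 were higher in the GLDT::NAC052 line and none was lower. Their median log2 fold change was 1.5, and 5.36% of all genes tested were higher and 2.85% lower. RD29A, a classic reporter of drought and cold, had 64422, 81416 and 69964 counts in the GLDT::NAC052 line, against 3234, 12811 and 5967 in the reference line. ERD10, a dehydrin gene, had 41567, 50483 and 56207 counts in the GLDT::NAC052 line, against 3965, 7009 and 8612 in the reference line. RD20, which encodes a calcium-binding caleosin, had 5382, 8492 and 9190 counts in the GLDT::NAC052 line, against 296, 876 and 887 in the reference line. Its log2 fold change of 3.19 ± 0.36 (SE, adjusted p = 6.5e-05, edgeR) was among the best resolved of the list.

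The phosphatase genes HAI1, HAI2, HAB1 and ABI1 were higher (the call of HAI2 was lost in 4 of the 6 fits without 1 library, with adjusted p between 0.0503 and 0.123 in edgeR), and ABI2 and PP2CA stayed under the fold limit with log2 fold changes of 0.93 and 0.68. HAI1 had 82, 63 and 201 counts in the GLDT::NAC052 line, against 7, 1 and 7 in the reference line. NCED3, the rate-limiting gene of abscisic acid synthesis, had 684, 809 and 721 counts in the GLDT::NAC052 line, against 332, 458 and 230 in the reference line. The difference of 0.86 on the log2 scale was within the fold limit. CYP707A1, which degrades the hormone, was higher with a log2 fold change of 1.6. The cold genes COR15A and COR15B were not differential and overlapped between the lines.

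Within lane 8 the abscisic acid list gave smaller numbers in 1 of the comparisons. Against the GLDT::5'truncatedNAC052 line 6 of 22 were higher, with a median log2 fold change of 0.51, beside 1.49% of all genes tested. The GLDT::5'truncatedNAC052 line itself had 5 of 22 higher than the reference line with a median of 0.94, beside 0.62% of all genes tested. RAB18 shows the pattern, with 1446, 1035 and 1474 counts in the GLDT::NAC052 line, 1212, 939 and 727 in the line with the truncated reading frame, and 358, 523 and 294 in the reference line. Against the CRISPR/Cas line 17 of 22 were higher with a median of 2.0, beside 7.69% of all genes tested. The CRISPR/Cas line itself had 5 of 22 lower than the reference line and none higher, with a median of -0.65. Among all genes tested 3.44% were lower in that line.

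Promoters were read from the TAIR10.1 genome, from 250 bases before to 50 bases after the annotated gene start, for 19555 of the tested genes. The core of the abscisic acid response element, ACGTG on either strand, occurred in 41.4% of promoters of genes higher in the GLDT::NAC052 line, in 24.5% of those of genes lower and in 27.5% of all. The G-box CACGTG, which contains that core and is bound by MYC2 among others, occurred in 15.1%, 7.68% and 8.84% of the same 3 sets. The palindromic motif described for NAC050 and NAC052 occurred in 0.667% of higher, 1.25% of lower and 0.639% of all promoters, which is 7, 7 and 125 genes. The W-box core TTGAC occurred in 56.1%, 51.2% and 50.8%, the CAMTA core CGCGT in 11.7%, 6.79% and 9.76%, and the evening element AAATATCT in 6.86%, 6.96% and 6.01%. These shares describe letters in a window and were not tested. The cores also stood before list members that were not differential, the G-box before JAZ3 and ORA59 and ACGTG before COR15A, PP2CA, CYP707A3 and RD22. The stretches of 30 bases that follow, written in the direction of the gene with the matched letters in capitals, show the core as it stands before genes of these lists that were higher in the GLDT::NAC052 line. The first 3 are a dehydrin, a phosphatase and a drought-induced NAC gene with ACGTG, and the last 2 are JAZ genes with the G-box.
RAB18 (chr5:26519541-26519570, minus strand): aggaggagcattACGTGtcctgttagctac
HAB1 (chr1:27389917-27389946, plus strand): acaaagactaatACGTGtccttttattaat
RD26 (chr4:13709253-13709282, minus strand): gccagttcatagACGTGgcagtatctaaat
JAZ2 (chr1:28150495-28150524, minus strand): attaaattaaaaCACGTGttttaaatgtct
JAZ7 (chr2:14572984-14573013, plus strand): aaaagcattttaCACGTGcgtgaagagaaa

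Genes that respond within minutes to calcium signals, touch or elicitors rose in part. Of 43 tested, 20 were higher in the GLDT::NAC052 line and none was lower, with a median log2 fold change of 0.78. Among all genes tested 5.36% were higher and 2.85% lower. Against the GLDT::5'truncatedNAC052 line 9 of the 43 were higher and none was lower, with a median of 0.63, beside 1.49% higher among all genes. Against the CRISPR/Cas line 11 were higher and 4 lower, with a median of 0.11, beside 7.69% and 5.21% of all genes. The CRISPR/Cas line itself had 15 of the 43 higher and 3 lower than the reference line, with a median of 0.67. Over all genes these shares were 3.3% and 3.44%. WRKY18, a regulator of defence, had 1391, 2261 and 2259 counts in the GLDT::NAC052 line, against 255, 262 and 474 in the reference line. ZAT6, a zinc finger factor, had 851, 1044 and 2015 counts in the GLDT::NAC052 line, against 183, 148 and 186 in the reference line. The classical touch genes TCH2, TCH3 and XTH22 and the cold factor CBF1 were not differential, with log2 fold changes between -0.25 and 0.15. Without replicate 3 of the GLDT::NAC052 line the number of higher members was 11. The receptor kinase gene FRK1 illustrates that replicate, with 238, 153 and 1133 counts in the GLDT::NAC052 line, against 47, 33 and 33 in the reference line.

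Genes of salicylic acid and systemic immunity did not move as a group. Of 24 tested, 4 were higher (WRKY38, FMO1, ALD1 and EDS5) and none was lower, beside 5.36% higher and 2.85% lower among all genes tested. No member passed without replicate 3 of the GLDT::NAC052 line or without reference replicate 3, 1 without reference replicate 2 and 7 without reference replicate 1. FMO1, which makes the mobile immune signal N-hydroxypipecolic acid, had 40, 12 and 479 counts in the GLDT::NAC052 line, against 48, 6 and 16 in the reference line. Only replicate 3 was above the reference libraries, and without it the log2 fold change was -0.063. PR1, the usual marker of the pathway, had 151, 345 and 756 counts in the GLDT::NAC052 line, against 417, 18 and 31 in the reference line, and was not differential. Against the CRISPR/Cas line 11 of the 24 genes were lower, with a median log2 fold change of -1.32, beside 5.21% of all genes tested. But the CRISPR/Cas line itself had 14 of the 24 higher than the reference line (median 1.76), beside 3.3% of all genes tested. Among genes of camalexin, an indole defence compound, CYP71A13 was higher with 238, 66 and 606 counts in the GLDT::NAC052 line, against 35, 16 and 44 in the reference line. PAD3, the last enzyme of that route, had 296, 195 and 1855 counts in the GLDT::NAC052 line, against 227, 64 and 67 in the reference line, and its call was lost without replicate 3 of the GLDT::NAC052 line (log2 fold change 0.83) or without reference replicate 2 (2.21) or 3 (2.25).

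Families of transcription factors were counted whole. Of 41 tested ERF and DREB genes 15 were higher and none was lower, of 54 WRKY genes 12 were higher and none was lower, and of 69 NAC genes 14 were higher, NAC052 included, and 1 was lower. Among all genes tested 5.36% were higher and 2.85% lower. Leaving out 1 library gave 11 to 16, 9 to 14 and 10 to 14 higher members in the same order of families. Against the GLDT::5'truncatedNAC052 line 6, 6 and 3 were higher, beside 1.49% of all genes tested. The CRISPR/Cas line itself had 4, 15 and 12 higher and 6, 0 and 6 lower than the reference line. Over all genes tested these shares were 3.3% and 3.44%. RAP2.6, an ERF factor of stress and wounding, had 1836, 2061 and 3909 counts in the GLDT::NAC052 line, against 19, 126 and 254 in the reference line. NAC019, which acts in jasmonate and abscisic acid responses, had 1321, 2042 and 3305 counts in the GLDT::NAC052 line, against 91, 126 and 210 in the reference line. The log2 fold change of NAC019 was 3.69 ± 0.42 (SE, adjusted p = 6.9e-05, edgeR), and NAC3 (AT3G15500, also called ANAC055) and RD26 of the same stress group had 2.48 and 1.56. The further NAC genes NAC032, NAC047 and NAC102 had log2 fold changes between 1.59 and 2.15.

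Heat shock genes were higher in 13 of 41 cases and lower in none, where 5.36% of all genes tested were higher and 2.85% lower. HSFA2, the heat-inducible regulator, had 415, 104 and 1055 counts in the GLDT::NAC052 line, against 47, 28 and 34 in the reference line. HSP90.1 had 2392, 971 and 5921 counts in the GLDT::NAC052 line, against 299, 174 and 230 in the reference line. Both were highest in replicate 3 and lowest in replicate 2, and without replicate 3 of the GLDT::NAC052 line 7 heat shock genes were higher. None of the 41 was differential against the GLDT::5'truncatedNAC052 line, whose replicate 3 had 2281 HSP90.1 counts against 836 and 430 in its replicates 1 and 2. Detoxification families were also raised in part, with 9 of 38 glutathione S-transferase genes higher and 2 lower, and 11 of 52 UDP-glycosyltransferase genes higher and 1 lower. Listed as ATGSTU17, the glutathione S-transferase gene AT1G10370 had 8553, 11897 and 12538 counts in the GLDT::NAC052 line, against 394, 1164 and 1050 in the reference line. Without replicate 3 of the GLDT::NAC052 line 5 glycosyltransferase genes were higher.

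Senescence and starvation genes were higher in 6 of 13 cases, with a median log2 fold change of 1.05, beside 5.36% of all genes tested. None of the 13 was differential against the GLDT::5'truncatedNAC052 line, with a median of 0.30. That line itself had 4 of the 13 higher than the reference line, beside 0.62% of all genes tested. Against the CRISPR/Cas line 7 were higher and 1 was lower, beside 7.69% and 5.21% of all genes tested. BCAT2, an enzyme of branched-chain amino acid breakdown, had 1438, 455 and 2134 counts in the GLDT::NAC052 line, against 192, 61 and 105 in the reference line. SEN1, a gene of darkness and senescence, had 39432, 20758 and 33527 counts in the GLDT::NAC052 line, against 11820, 8035 and 8038 in the reference line. In these 2 genes replicate 2 was the lowest GLDT::NAC052 library. The chlorophyll breakdown genes NYE1, PPH and PAO were within the fold limit, with log2 fold changes of 0.52, 0.47 and 0.09.

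Iron-deficiency genes were lower in part. Plants short of iron switch on a small group of bHLH factors, while ferritins and the iron superoxide dismutase FSD1 are switched on when iron is plentiful. Of 14 tested leaf iron genes 6 were lower and 1 was higher in the GLDT::NAC052 line, beside 2.85% and 5.36% of all genes tested. BHLH38 had 0, 0 and 12 counts in the GLDT::NAC052 line, against 98, 88 and 255 in the reference line. BHLH100 had 6, 11 and 19 counts in the GLDT::NAC052 line, against 141, 96 and 394 in the reference line. All 3 GLDT::NAC052 libraries of the 4 bHLH genes were below the reference, and reference replicate 3 was the highest of the reference libraries for each of them. CGLD27, another iron-deficiency gene, had 481, 417 and 438 counts in the GLDT::NAC052 line, against 1095, 994 and 1615 in the reference line, a log2 fold change of -1.74 ± 0.22 (SE, adjusted p = 0.000118, edgeR).

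The higher member was FSD1, with 10889, 13917 and 8048 counts in the GLDT::NAC052 line, against 2689, 2842 and 532 in the reference line. FER1, a ferritin gene, had 7451, 6486 and 6290 counts in the GLDT::NAC052 line, against 4167, 3928 and 721 in the reference line, and was not differential (log2 fold change 0.98, adjusted p = 0.15, edgeR). Reference replicate 3 was the lowest library for both genes, and the call of FSD1 was lost without it (adjusted p = 0.0673) or without replicate 2 of the GLDT::NAC052 line (0.0551, edgeR). Within lane 8, BHLH38 had 94, 42 and 1 counts in the GLDT::5'truncatedNAC052 line and 86, 141 and 15 in the CRISPR/Cas line. No iron gene passed the test against the GLDT::5'truncatedNAC052 line. Of the 14, 6 were lower and 2 higher than in the CRISPR/Cas line, beside 5.21% and 7.69% of all genes tested.

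Sulfate transporter genes were also among the lower ones. Of 10 tested genes of sulfate assimilation and sulfur deficiency, 4 were lower and none was higher, and 3 of these were the transporters SULTR1;2, SULTR2;2 and SULTR4;2, the last of which stayed under the fold limit without replicate 3 of the GLDT::NAC052 line (-0.85) or without reference replicate 2 (-0.89). SULTR1;2, the main importer of sulfate, had 58, 74 and 56 counts in the GLDT::NAC052 line, against 175, 158 and 173 in the reference line. SULTR2;2, which also served as a bundle sheath marker, had 203, 181 and 117 counts in the GLDT::NAC052 line, against 361, 391 and 387 in the reference line. Their log2 fold changes were -1.68 ± 0.22 and -1.45 ± 0.22 (SE, adjusted p = 0.000152 and 0.000309, edgeR). The assimilatory reductase genes APR1, APR2 and APR3 were not differential.

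Photosynthesis genes mostly stayed within the fold limit. The median log2 fold change was -0.39 over 43 light-harvesting and photosystem genes and -0.50 over 17 photorespiratory genes, with 2 and 0 of them differential. The number of lower light-harvesting and photosystem genes was 1 without replicate 3 of the GLDT::NAC052 line and 5 without its replicate 2. The native GLDT gene, whose F. trinervia counterpart supplied the promoter, had 21623, 20766 and 14019 counts in the GLDT::NAC052 line, against 30974, 27606 and 27619 in the reference line. Its log2 fold change of -0.87 did not reach the fold limit. LHCB2.3, an antenna protein gene, had 38036, 35338 and 20820 counts in the GLDT::NAC052 line, against 62583, 59711 and 56094 in the reference line. For both genes replicate 3 of the GLDT::NAC052 line was the lowest of the 6 libraries.

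Genes of RNA silencing and flowering time, processes known for the NAC052 complex, showed no differential member. Of 19 tested silencing genes none passed, with a median log2 fold change of -0.31. At an adjusted p under 0.05 without the fold limit SGS3, HEN1, SDE3, DCL4 and AGO4 were among those lower. That weaker limit was passed by 6736 of the 19663 genes tested, in either direction, so no change of the group is read from these names. SGS3, a cofactor of post-transcriptional silencing, had a log2 fold change of -0.76 ± 0.18 (SE, adjusted p = 0.0053, edgeR). Of 13 flowering time genes none was differential. The 15 genes that the study picked on these same libraries as lower in this line and in the CRISPR/Cas line were all lower here, which is no independent evidence because of that choice, and between 11 and 13 of them passed when 1 library was left out. Cell wall genes among them included BXL1 and BXL2 of the beta-xylosidase family, and the study describes BXL1 as needed to modify pectic arabinan. The arabinogalactan protein gene AGP3 was also among them. Its call was lost without any 1 of the GLDT::NAC052 libraries or without reference replicate 1 or 2 (adjusted p between 0.0637 and 0.14, edgeR). BXL1 had 6815, 6062 and 4912 counts in the GLDT::NAC052 line, against 12047, 10710 and 10458 in the reference line.

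The whole response was also set beside the other lines. Of the 1053 higher genes, 534 (50.7%) also lay above all 6 other lane 8 libraries in each of the 3 GLDT::NAC052 libraries, against 9.04% of all genes tested. Of the 561 lower genes, 180 (32.1%) lay below all 6, against 6.93%. The higher genes had a median log2 fold change of 1.66 against the reference line, 0.96 against the GLDT::5'truncatedNAC052 line and 1.51 against the CRISPR/Cas line, and the first of these values chose the genes. The lower genes had medians of -1.21, -0.63 and -0.99. These genes were chosen on the same GLDT::NAC052 libraries, so the shares over all genes are not what would be found without an effect of the line, and nothing is read from the gap. Tested directly, the GLDT::NAC052 line differed from the GLDT::5'truncatedNAC052 line in 345 genes (292 higher and 53 lower, 1.75% of genes tested) and from the CRISPR/Cas line in 2537 genes (1513 higher and 1024 lower, 12.9%). Against the same 3 reference libraries, the GLDT::5'truncatedNAC052 line had 185 differential genes (0.941%, with 0.62% higher and 0.32% lower), the CRISPR/Cas line 1324 (6.73%, with 3.3% higher and 3.44% lower) and the activation-tagged line 225 (1.14%, with 0.295% higher and 0.849% lower). Of the 15 genes with the largest rise 8 were also higher than in the GLDT::5'truncatedNAC052 line, and of the 10 with the largest fall 2 were also lower.

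The NAC052 count differed about 10-fold among the 3 GLDT::NAC052 libraries, so the difference of each library from the reference was set beside it. The order of the scaled counts was replicate 1 (280 CPM), replicate 3 (165 CPM) and replicate 2 (27.2 CPM). For each library, genes were called in a fit without it, and the median log2 difference of those genes from the reference mean was then read in the library left out. For genes higher it was 1.26 in replicate 1, 1.41 in replicate 2 and 2.0 in replicate 3, over 1156, 1095 and 786 genes. For genes lower it was -0.99, -0.88 and -1.31. These medians are descriptions only, since each comes from another set of genes, chosen by the other libraries against the same 3 reference libraries. The distance from the 3 reference libraries, as a root mean square difference of log2 CPM over all genes, averaged 0.73 in replicate 1, 0.74 in replicate 2 and 0.93 in replicate 3. Reference libraries differed from each other by 0.48 to 0.54.

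The order of the 3 libraries was also counted gene by gene. The order of NAC052, replicate 1 above 3 above 2, was found in 49 of the 1053 higher genes (4.65%), against 13.5% of all genes tested. The commonest order was replicate 3 above 2 above 1, in 484 genes (46.0%, against 17.8% of all), and replicate 3 was the highest library in 71.3%. Among the 561 lower genes the order opposite to that of NAC052, replicate 2 above 3 above 1, was found in 69 genes (12.3%, against 11.7% of all), and replicate 3 was the lowest library in 62.9%. The called genes were chosen on these libraries, genes of a library are not independent of each other, and a relation between NAC052 count and response was not tested over 3 libraries.

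The lists differed in how the libraries ranked. The median difference of the 29 jasmonate genes from the reference mean was 1.59 in replicate 1, 2.29 in replicate 2 and 2.40 in replicate 3. The reference libraries themselves ran from -0.92 in replicate 1 over 0.17 in replicate 2 to 0.75 in replicate 3 on this list, a wider spread. The abscisic acid list was nearly level, with 1.58, 1.51 and 1.68, and so was the iron list, with -0.83, -0.90 and -0.94. The early calcium and touch list gave 0.28, 0.48 and 1.59, and the salicylic acid list -0.09, 0.04 and 1.23. In these lists replicate 3 stood apart from the other GLDT::NAC052 libraries. It also had the lowest median of the mesophyll markers, at -0.88 against -0.39 in replicate 1 and -0.44 in replicate 2. The part of leaf state in its ranking was not tested. In the line with the truncated reading frame replicate 3 ranked the same way. Replicates 1, 2 and 3 of that line gave -0.07, 0.03 and 0.58 on the calcium list. They gave -0.23, 0.05 and 0.57 on the salicylic acid list and -0.12, -0.05 and -0.70 for mesophyll markers. In the CRISPR/Cas line replicate 3 did not rank this way on any of these. The likeness of same-numbered libraries was not tested.

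**Figure D4:**
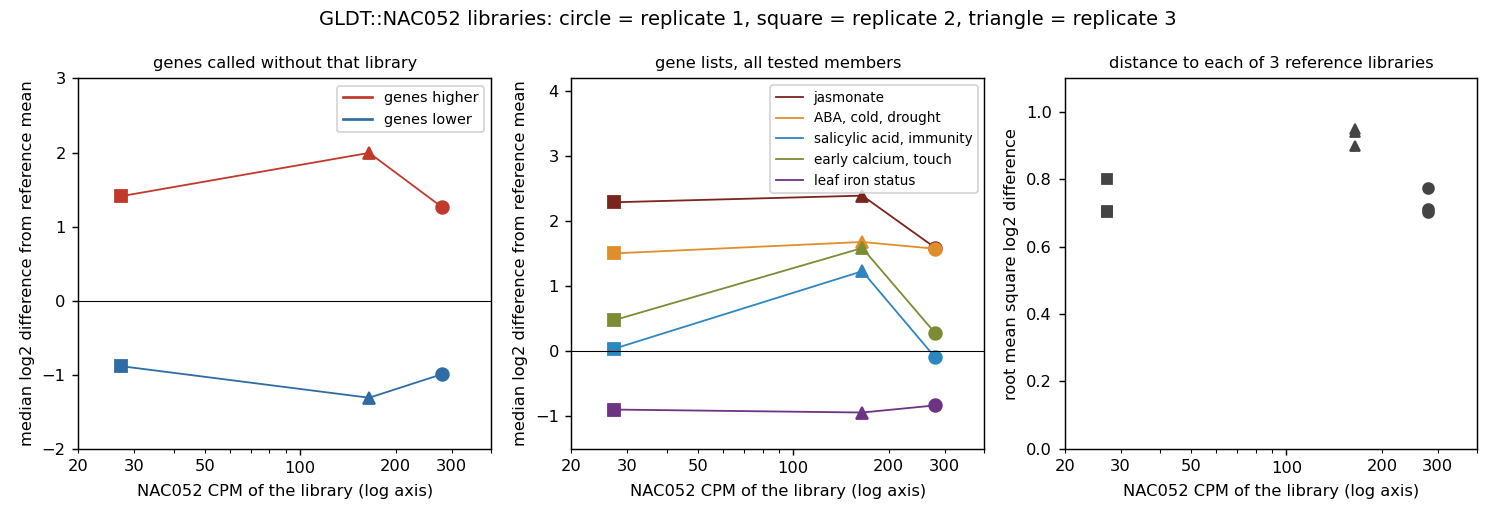
Response of the 3 GLDT::NAC052 libraries against their NAC052 level (CPM, log axis). The left panel shows the median log2 difference from the reference mean of genes called without that library, the middle panel the same for 5 gene lists, and the right panel the distance to each reference library. The libraries with 27.2 and 280 CPM of NAC052 lay at average distances of 0.74 and 0.73 from the reference, but had jasmonate medians of 2.29 and 1.59, and the library with 165 CPM lay furthest, at 0.93.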

How the data were processed

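Poly(A) RNA of whole rosettes was sequenced by the authors with a stranded kit, and the reads were trimmed and mapped to TAIR10 in CLC Genomics Workbench. The deposited table holds raw read counts per gene, without normalization, for 32833 genes, and 6 columns of samples that are not described were not used. Whether counting used strand is not given in the sources used here, so overlapping and antisense genes are uncertain. Lanes were read from the library names in the column headers of the deposited table.

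Genes were kept with edgeR's default filter (about 10 counts in 3 or more libraries, 15 in total), which left 19663 genes. Counts of all 15 libraries were scaled by TMM and fitted with a term per line by edgeR 4.0.16 (glmQLFit, glmQLFTest, R 4.3.3), the main test of every adjusted p. The procedure was tested on simulated data. Each SE of a log2 fold change was derived from the test, as the absolute log2 fold change divided by the square root of its F statistic. CPM use TMM-scaled totals, and distances use log2 CPM with a prior count of 2. DESeq2 1.42.0, limma voom 3.58.1, other scalings and filters, 6 libraries only, a replicate block and leaving out single libraries were alternatives. Counting intervals and floors cover counting error only. The p-values of the main test rest on a spread among replicates estimated over all 5 lines together and moderated across genes. They do not measure the spread of the 3 replicates of 1 line alone.

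Named were NAC052, NAC050, JMJ14, the 15 largest rises and 10 largest falls with non-overlapping lines and a mean of at least 1 CPM, and up to 4 differential members per list. Further list members were chosen by role after their values were seen. Members and lists were chosen with earlier results of these data known. Promoters came from the TAIR10.1 assembly, annotated by RefSeq.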

Additional observations from a re-analysis of the deposited data

How the results depend on the processing

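NAC052 stayed higher and past the test in every fit, with log2 fold changes between 2.26 (without replicate 1 of the GLDT::NAC052 line) and 3.48 (without its replicate 2). The number of differential genes was 1610 with median-of-ratios scaling, 1661 in DESeq2, 1604 in limma voom, 1623 without a filter, 1238 with at least 10 counts in every library and 1449 with only the 6 libraries. Leaving out 1 library gave 1186 (without replicate 3 of the GLDT::NAC052 line) to 1784 genes (without its replicate 2). Without a fold limit the number of genes differential in the GLDT::NAC052 line against the reference line was 6736, the number of genes higher in the GLDT::NAC052 line was 3342 and the number of genes lower in the GLDT::NAC052 line was 3394. With library totals alone the number of genes lower in the GLDT::NAC052 line was 356. Same-numbered libraries of the GLDT::NAC052 and reference lines did not deviate together (correlations of -0.03, 0.22 and 0.03), so the numbers were not taken as pairs. The replicate block gave 1468 genes, 962 higher and 506 lower, 1392 of them among the 1614 of the report, and NAC052 at 2.51. Of the named genes only FMO1 changed sign: the FMO1 log2 fold change lay between -0.063 (without replicate 3 of the GLDT::NAC052 line) and 3.66 (without reference replicate 1) when 1 library was left out. Of the 115 differential genes named by the rule, 82 kept their call in all 6 fits that left out 1 library. The iron list had 3 lower members in limma voom and 1 with at least 10 counts in every library, a filter that removes genes near 0 in 1 line. The distance of each library kept replicate 3 as the furthest with genes of at least 10 CPM (0.54, 0.57 and 0.72) and with a prior count of 0.5 (0.83, 0.82 and 1.02). Genes with few counts in the reference line, such as ERF019, limit the precision of the largest folds.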

Other observations

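Some growth-related genes were differential, beside 5.36% of all genes tested higher and 2.85% lower. Among auxin-conjugating GH3 genes 2 of 7 were higher and 1 was lower, and GH3.3 had 3387, 2647 and 3794 counts in the GLDT::NAC052 line, against 824, 514 and 510 in the reference line. Of 56 SAUR genes, small auxin-induced growth genes, 5 were higher and 5 lower, with 1 lower without replicate 3 of the GLDT::NAC052 line and 9 without its replicate 1. SAUR34 had 178, 446 and 441 counts in the GLDT::NAC052 line, against 38, 68 and 72 in the reference line, a log2 fold change of 2.31, and 2.21 against the GLDT::5'truncatedNAC052 line. The cell wall-loosening genes EXPA11 and XTH7 were lower, with log2 fold changes of -1.74 and -1.67, while EXPA16, XTH18 and XTH23 were higher with 1.47, 3.04 and 2.87. In all, 2 of 14 alpha-expansin genes were higher and 3 lower, which became 1 and 1 without replicate 3 of the GLDT::NAC052 line or without reference replicate 1, and 1 higher without reference replicate 2, and 3 of 23 xyloglucan endotransglucosylase genes were higher and 3 lower.

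Of 15 cytokinin genes 2 were higher and 2 lower, and the lower ones were 5 without replicate 2 of the GLDT::NAC052 line and 1 without its replicate 1 or 3 or without reference replicate 2 or 3. CKX5, a cytokinin oxidase gene, had 1284, 1797 and 1872 counts in the GLDT::NAC052 line, against 388, 702 and 288 in the reference line. AMP1, whose loss alters leaf production and cytokinin level, had 1019, 1100 and 713 counts in the GLDT::NAC052 line, against 2152, 2406 and 1894 in the reference line. Chalcone synthase (CHS), the entry to flavonoids, had 272, 333 and 149 counts in the GLDT::NAC052 line, against 454, 558 and 547 in the reference line. The replication genes MCM2 and CDC6 were the 2 lower members of 16 cell division genes, with log2 fold changes of -1.03 and -1.05 that came within the fold limit in 2 and 3 of the 6 fits without 1 library. Of 17 clock genes 1 was higher, RVE8 with 1.12, a share of 5.88% beside 5.36% of all genes tested. RVE8 came within the fold limit without replicate 3 of the GLDT::NAC052 line (0.87). Of 14 aliphatic glucosinolate genes 1 was lower, CYP83A1, a call lost in 4 of the 6 fits without 1 library.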
